A study of Rattus norvegicus with 12 samples.

Results

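Bdnf and 7 further growth factor and receptor genes were followed in rat hippocampus after KA or PBS and after enriched or isolated housing. The members were Bdnf, Ntf3, Gdnf, Fgf2 and Vegfa, which encode secreted ligands, and Ntrk2, Ntrk3 and Ngfr, which encode receptors. They were found by taking every probe set (the group of short probes that measures a transcript) whose only gene symbol in the array annotation was a member, which gave 12 probe sets of 15923 in the table. Of these, 6 probe sets from 4 genes (Bdnf, Ntf3, Ntrk2 and Vegfa) lay above the filter on low signal and were tested among 9520 probe sets; the other 6 lay below it. Where a gene had several probe sets they are called A, B and C in order of mean signal. The study asked whether an enriched environment lessens neuronal injury caused by seizures, and the groups were KA_enriched, PBS_enriched, KA_isolated and PBS_isolated, with 3 arrays each.

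All rats were treated at postnatal day 20, with KA or with PBS, the saline control. The labels give KA only as an abbreviation; it is taken to mean kainic acid, which activates glutamate receptors and triggers seizures. Enriched rats shared large cages, 8 to a cage, and isolated rats lived alone for 10 days, which the PBS_isolated labels place before sacrifice. The labels give no duration for the enriched rats. They do not state the time from treatment to sacrifice, so the KA values cannot be read as an acute response to seizures. Each array held hippocampal RNA pooled from 3 to 4 animals. The labels name no strain, sex, litter or cage for a pool, so the p-values speak only of the spread among pools, which may have shared cages. No group had ordinary group housing, so enrichment and isolation cannot be told apart as the source of a housing difference. In whole tissue, fewer cells of a type and less RNA per cell cannot be told apart either.

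Neurotrophins are small secreted proteins that keep neurons alive and adjust their synapses. BDNF acts mainly on the receptor tyrosine kinase TrkB, the product of Ntrk2, and NT-3, the product of Ntf3, mainly on TrkC, the product of Ntrk3; the p75 receptor encoded by Ngfr binds all neurotrophins and their precursors. In rodent hippocampus, Bdnf transcription rises with neuronal activity, including seizures, and Bdnf has been studied widely in relation to exercise and enriched housing. GDNF signals through Ret and the GFRα co-receptors, FGF-2 through the FGF receptors, and VEGF-A through receptors on blood vessels and also on neurons.

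Bdnf is transcribed from several promoters that share the coding exon. RefSeq places the gene at chr3:116619633-116670212 on the plus strand of the GRCr8 build, and its promoter table lists 6 Bdnf starts. The window before start 4 is shown because it was the only Bdnf window with the core of a cAMP response element, CGTCA (or TGACG on the other strand); in rodent neurons CREB acts through an element of this kind upstream of a Bdnf exon. The capitals mark the core, which lay 35 to 31 bases before the start, in the window chr3:116637608-116637857 (plus strand).
Bdnf, start 4: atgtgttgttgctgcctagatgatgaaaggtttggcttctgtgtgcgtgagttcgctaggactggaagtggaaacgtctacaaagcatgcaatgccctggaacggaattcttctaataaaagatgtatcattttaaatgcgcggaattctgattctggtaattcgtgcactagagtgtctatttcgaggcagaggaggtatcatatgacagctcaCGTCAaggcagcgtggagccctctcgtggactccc

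The core was also found before the single listed starts of Gdnf and Fgf2, the other members that held it among the 5 members (13 windows) in the promoter table. These stretches are the last 100 bases before each start, on the plus strand, at chr2:58621227-58621326 for Gdnf and chr2:122164354-122164453 for Fgf2, with the core in capitals.
Gdnf: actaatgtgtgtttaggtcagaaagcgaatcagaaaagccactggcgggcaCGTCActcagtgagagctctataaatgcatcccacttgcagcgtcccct
Fgf2: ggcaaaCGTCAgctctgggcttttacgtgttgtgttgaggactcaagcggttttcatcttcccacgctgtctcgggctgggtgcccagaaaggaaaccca

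The core is common: it was held on either strand by 18.2% of the 33469 windows of 250 bases in the promoter table. That table does not cover every gene. Of its windows, 1.6% held the full element TGACGTCA, and 5.6% held the E-box CACGTG. No member window held either of these longer motifs. A match of letters does not show a site in use, and the array does not say from which promoter a Bdnf transcript came.

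The arrays were alike in level, with medians from 70.06 to 74.1 and correlations between arrays from 0.9713 to 0.99. Of 15 listed neuron markers on the array, many of them not particular to hippocampus, 14 lay above the signal filter and Dsp lay below it. All 11 astrocyte markers lay above it, and the filter kept 60% of all probe sets. KA_enriched replicate 3 was the least like the rest. It correlated with them at a mean of 0.9772, against 0.9817 to 0.9864 for the others, and its ratio of 3 prime to 5 prime beta-actin signal was the highest, at a log2 of 0.856. It had the highest or lowest signal of all 12 arrays in 33.3% of all tested probe sets, so values that rest on it are given without it too. Of the 6 tested member probe sets it was highest in 2 and lowest in 1. Of all 12 member probe sets it was highest or lowest in 6. KA_enriched replicate 2 came next, with a mean correlation of 0.9817 and 26.4% of tested probe sets, against 12.4 to 17.2% in the remaining arrays. At an adjusted p under 0.05, limma called 0 of the 6 tested member probe sets in any contrast. Among all 9520 it called 0.0105% for the KA effect under isolation, 0% under enrichment and 0.0105% in the mean of both housings. For enriched against isolated rats it called 0.0105% after PBS, 0% after KA and 0.021% in the mean of both treatments, and for the interaction 0%. In the mean KA effect, 0 of the 6 also had an unadjusted p under 0.05 or groups that did not overlap, against 4.31% and 0.105% of all.

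Bdnf, the main activity-dependent neurotrophin of the hippocampus, had a signal of 112.0, 136.6 and 129.1 in the KA_enriched arrays and 133.0, 150.5 and 120.8 in the PBS_enriched arrays, on probe set A. The signal was 115.3, 120.0 and 123.0 in KA_isolated and 113.3, 104.6 and 109.1 in PBS_isolated. Every PBS_enriched array lay above every PBS_isolated array, and every KA_isolated array lay above every PBS_isolated array. The KA_enriched arrays overlapped with each of the other groups. The highest value of the series was in PBS_enriched and the lowest in PBS_isolated.

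Taking both treatments together, Bdnf averaged 130.4 ± 13.3 in enriched rats and 114.2 ± 6.81 in isolated rats (SD, n = 6 each). This is a log2 difference of 0.16 (SE 0.062, 95% interval 0.030 to 0.30), or 1.12-fold on the log2(signal + 17) scale, and it did not pass over all probe sets (limma, adjusted p = 0.832; unadjusted p = 0.0206). At an unadjusted p under 0.05, Bdnf and Ntf3 were 2 of the 6 tested member probe sets, both higher in enriched rats, where 5.64% of all tested probe sets reached that level. The 6 enriched and 6 isolated arrays overlapped, with KA_enriched replicate 1 (112.0) below 4 of the isolated arrays; 0.305% of all tested probe sets had no overlap here, and 0 of the 6 members.

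The housing difference of Bdnf was also taken within each treatment; the test of the difference between them did not pass. After PBS it was 0.265 (SE 0.088, interval 0.075 to 0.455, adjusted p = 0.998), with no overlap between groups; 11.6% of all tested probe sets had groups of 3 that did not overlap in this comparison, and 1 of the 6 member probe sets did. At an unadjusted p under 0.05 Bdnf A was likewise the 1 member probe set of 6, against 4.21% of all. After KA it was 0.063 (SE 0.088, interval -0.13 to 0.25, adjusted p = 0.922), with 0.0094 without KA_enriched replicate 2 and 0.135 without KA_enriched replicate 1. KA against PBS gave -0.086 (SE 0.088, interval -0.28 to 0.10) in enriched rats and 0.12 (SE 0.088, interval -0.075 to 0.31) in isolated rats. The effect in enriched rats was -0.013 without PBS_enriched replicate 2 and -0.15 without PBS_enriched replicate 3. The interaction (KA effect under enrichment minus that under isolation) was -0.20 (SE 0.125, adjusted p = 0.96), with -0.13 and -0.27 when the same arrays were left out in that order. In the interaction 11 of 12 tested microglial markers were lower (median log2 -0.505, 0 passed). After PBS 11 of 12 were higher in enriched rats (median log2 0.145, 0 passed, 1 with an unadjusted p under 0.05 in limma). The summed signal of the 14 markers on the array was 1249, 1933 and 1289 in PBS_enriched, against 1228 to 1325 in PBS_isolated, so 1 pool stood out. The part of these markers in the Bdnf values was not tested. These contrasts share groups and are not independent of each other.

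**Figure D1:**
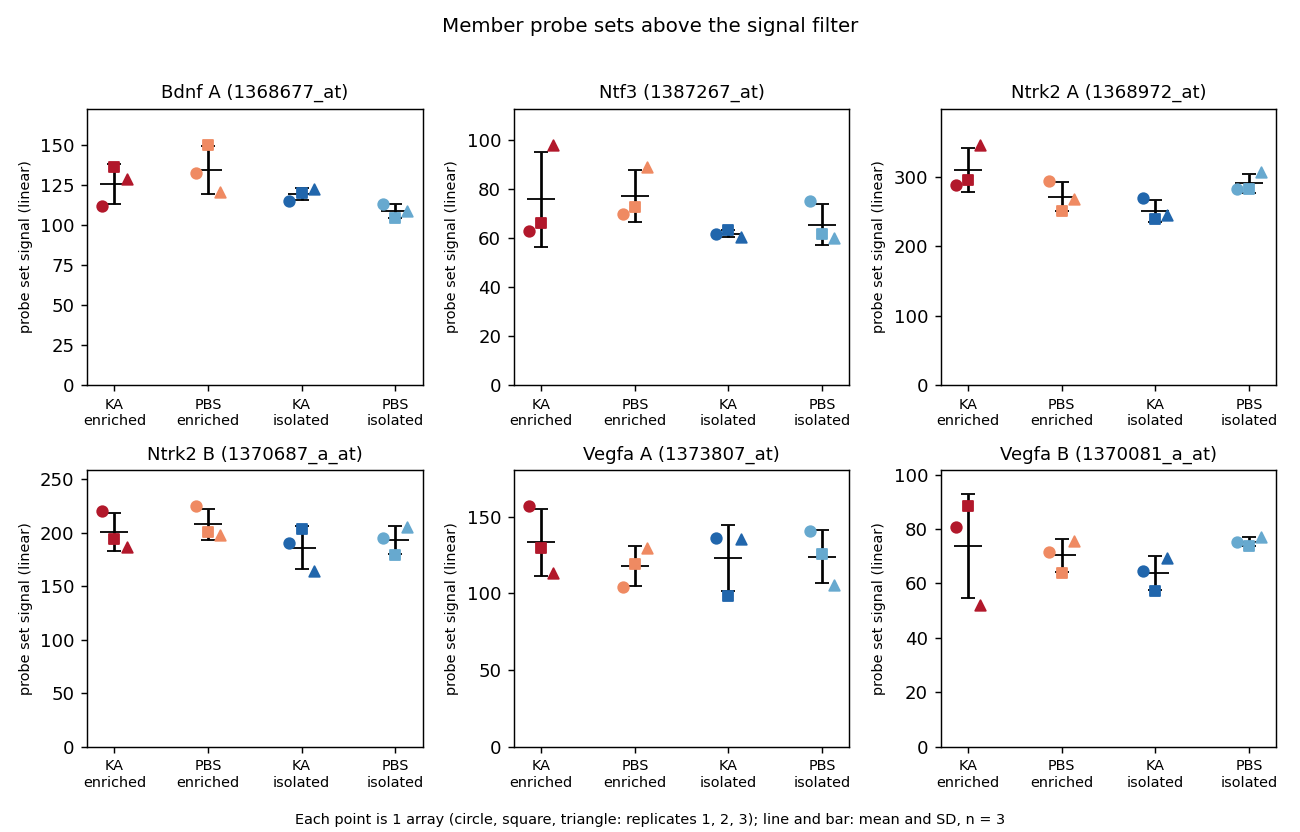
Signal of the 6 member probe sets above the filter on a linear axis from 0, by group; points are arrays, and lines with bars are means with SD (n = 3). Bdnf lies between 104.6 and 113.3 in PBS_isolated and between 112.0 and 150.5 in the enriched arrays, and Ntrk2 A is lowest in KA_isolated (239.6 to 269.8).

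Bdnf probe set B was dim, below the filter. It gave 34.7, 47.6 and 38.5 in KA_enriched and 36.7, 30.6 and 21.0 in PBS_enriched, with 31.1, 40.1 and 24.4 in KA_isolated and 21.6, 37.8 and 33.1 in PBS_isolated. All 4 groups overlapped, with 2 of the 3 KA_enriched values above every PBS_enriched value. In a fit with no filter, its housing difference was 0.097 (SE 0.12, adjusted p = 0.936) and its KA effect in enriched rats was 0.31 (SE 0.17, interval -0.061 to 0.68, adjusted p = 0.94). Leaving out 1 array gave 0.024 (without PBS_isolated replicate 1) to 0.17 (without PBS_enriched replicate 3) for the housing difference, and 0.17 (without PBS_enriched replicate 3) to 0.42 (without PBS_enriched replicate 1) for the KA effect. The correlation of both Bdnf probe sets over the 12 arrays was a Pearson r of 0.181, as a description of arrays that also share their groups. The annotation does not say which Bdnf transcripts each probe set reads.

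Ntf3, which encodes NT-3, was the member with the largest mean housing difference among the tested probe sets. Its signal was 63.1, 66.3 and 98.2 in KA_enriched, 69.9, 72.6 and 89.2 in PBS_enriched, 61.5, 63.5 and 60.6 in KA_isolated and 75.0, 61.8 and 59.9 in PBS_isolated. The highest values were replicate 3 of each enriched group, and the isolated arrays other than PBS_isolated replicate 1 lay in a narrow range up to 63.5. The mean housing difference was 0.20 (SE 0.091, interval 0.0060 to 0.40, adjusted p = 0.875), with 0.22 (SE 0.129) after KA and 0.19 (SE 0.129) after PBS. Without KA_enriched replicate 3 the mean difference was 0.12 (SE 0.069, adjusted p = 0.729), and after KA alone it was 0.050 (SE 0.10). After PBS it was 0.101 without PBS_enriched replicate 3.

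Gdnf, Fgf2 and Vegfa are growth factors outside the neurotrophin family. Gdnf, a survival factor for dopaminergic and motor neurons, gave a signal of 1.7 to 6.9 in all 12 arrays, near the bottom of the scale, and its intervals included 0 in each comparison plotted. Fgf2, a factor for astrocytes and neural precursors, had 29.0, 36.5 and 17.9 in KA_enriched and 42.8, 36.9 and 38.1 in PBS_enriched. All KA_enriched values lay below all PBS_enriched values, the nearest being 36.5 and 36.9. In this comparison 9.62% of all tested probe sets, which do not include Fgf2, had groups that did not overlap. In isolated rats the Fgf2 groups did overlap. There Fgf2 had 35.7, 37.9 and 41.9 in KA_isolated and 38.7, 27.5 and 33.1 in PBS_isolated.

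With no filter, the KA effect on Fgf2 was -0.35 in enriched rats (SE 0.139, interval -0.65 to -0.044, adjusted p = 0.921) and 0.15 in isolated rats (SE 0.139, adjusted p = 0.999). The interaction was -0.50 (SE 0.197, interval -0.93 to -0.070, adjusted p = 0.886), and enriched against isolated after KA gave -0.33 (SE 0.139, adjusted p = 0.712). KA_enriched replicate 3 was the lowest Fgf2 value of the series. Without it the KA effect in enriched rats was -0.18 (SE 0.11, adjusted p = 0.843), the housing difference after KA -0.16 (SE 0.11), and the interaction -0.33 (SE 0.148, adjusted p = 0.737). The KA effect in isolated rats was 0.070 without PBS_isolated replicate 2 and 0.23 without PBS_isolated replicate 1. Fgf2 lies below the filter, so these are values at low signal.

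Vegfa, the main angiogenic factor, had 2 tested probe sets. On Vegfa B the signal was 80.6, 88.3 and 52.2 in KA_enriched and 71.6, 63.8 and 75.7 in PBS_enriched, against 64.6, 57.2 and 69.5 in KA_isolated and 75.4, 73.9 and 76.9 in PBS_isolated. The KA_isolated arrays all lay below the PBS_isolated arrays, and KA_enriched held both the highest and the lowest value of the series. The KA effect in isolated rats was -0.20 (SE 0.129, interval -0.475 to 0.080, adjusted p = 0.999) and the interaction 0.23 (SE 0.18, adjusted p = 0.961). The interaction depended on single arrays: it was 0.41 (SE 0.118, adjusted p = 0.467) without KA_enriched replicate 3 and 0.11 without KA_enriched replicate 2.

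Vegfa A gave 156.7, 129.9 and 113.6 in KA_enriched, 104.1, 119.4 and 129.8 in PBS_enriched, 136.0, 98.4 and 135.2 in KA_isolated, and 140.5, 125.6 and 105.7 in PBS_isolated. Its groups overlapped in every comparison, and it did not separate KA_isolated from PBS_isolated as Vegfa B did. Its KA effect in enriched rats was 0.15 (SE 0.137, adjusted p = 0.958), and it was 0.044 without KA_enriched replicate 1 and 0.25 (SE 0.145) without KA_enriched replicate 3. The Pearson r of both Vegfa probe sets over the 12 arrays was 0.473. Choroid plexus also expresses Vegfa. The summed signal of 8 choroid plexus marker genes was 4290 in PBS_isolated replicate 1, against 1146 to 1805 in the other 11 arrays. Most of that 4290 came from 1 gene, Ttr, at 2719, so the sum does not show that the 8 genes rose together. The part of choroid plexus in the Vegfa values was not tested.

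Of the receptor genes, Ntrk2 was the one above the filter. It encodes TrkB in a full-length form with a kinase domain and in truncated forms without it, which are abundant in astrocytes. On Ntrk2 A the signal was 288.6, 295.7 and 346.9 in KA_enriched and 293.9, 251.8 and 269.1 in PBS_enriched, against 269.8, 239.6 and 245.2 in KA_isolated and 283.0, 282.5 and 307.2 in PBS_isolated. All KA_isolated values lay below all PBS_isolated and all KA_enriched values. The enriched groups overlapped.

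The KA effect on this probe set was -0.198 in isolated rats (SE 0.088, interval -0.39 to -0.0070, adjusted p = 0.999; unadjusted p = 0.0432) and 0.18 in enriched rats (SE 0.088, interval -0.011 to 0.37, adjusted p = 0.932). It was 1 of the 6 member probe sets with an unadjusted p under 0.05 in isolated rats, where 4.31% of all tested probe sets had one; in enriched rats 0 of the 6 did, against 4.98% of all. The interaction was 0.38 (SE 0.125, interval 0.11 to 0.65, unadjusted p = 0.00975) and did not pass (adjusted p = 0.91); 1 of the 6 members and 4.97% of all tested probe sets had an unadjusted p under 0.05. Enriched against isolated housing gave 0.28 after KA (SE 0.088, interval 0.092 to 0.47, adjusted p = 0.628), where 1 of the 6 and 7.02% of all had an unadjusted p under 0.05. After PBS it gave -0.095 (SE 0.088, adjusted p = 0.998), with -0.045 without PBS_enriched replicate 2 and -0.15 without PBS_enriched replicate 1. The KA effect in isolated rats, the interaction and the housing difference after KA share the KA_isolated arrays, so they are not independent results. Without KA_enriched replicate 3, the highest array, the KA effect in enriched rats was 0.10 (SE 0.086), the interaction 0.30 (SE 0.115, adjusted p = 0.577), and the housing difference after KA 0.205 (SE 0.086, adjusted p = 0.511).

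The other tested probe set, Ntrk2 B, had 220.2, 194.3 and 186.3 in KA_enriched and 224.5, 201.0 and 197.8 in PBS_enriched, against 190.2, 203.3 and 164.2 in KA_isolated and 195.4, 179.3 and 205.1 in PBS_isolated. All groups overlapped. Enriched minus isolated was 0.101 (SE 0.094) after KA, 0.096 (SE 0.094) after PBS and 0.098 (SE 0.066, interval -0.045 to 0.24, adjusted p = 0.879) in the mean of both. These values moved with single arrays. Without KA_isolated replicate 3 the difference was 0.021 after KA and 0.059 in the mean, and without KA_isolated replicate 2 it was 0.16 after KA and 0.13 in the mean; after PBS it was 0.043 without PBS_enriched replicate 1 and 0.14 without PBS_isolated replicate 3. The Pearson r between the tested Ntrk2 probe sets over the 12 arrays was 0.186. Ntrk2 C was dim at 3.6 to 11.8. The annotation ties all 3 to Ntrk2 and does not say which TrkB form each reads.

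**Figure D2:**
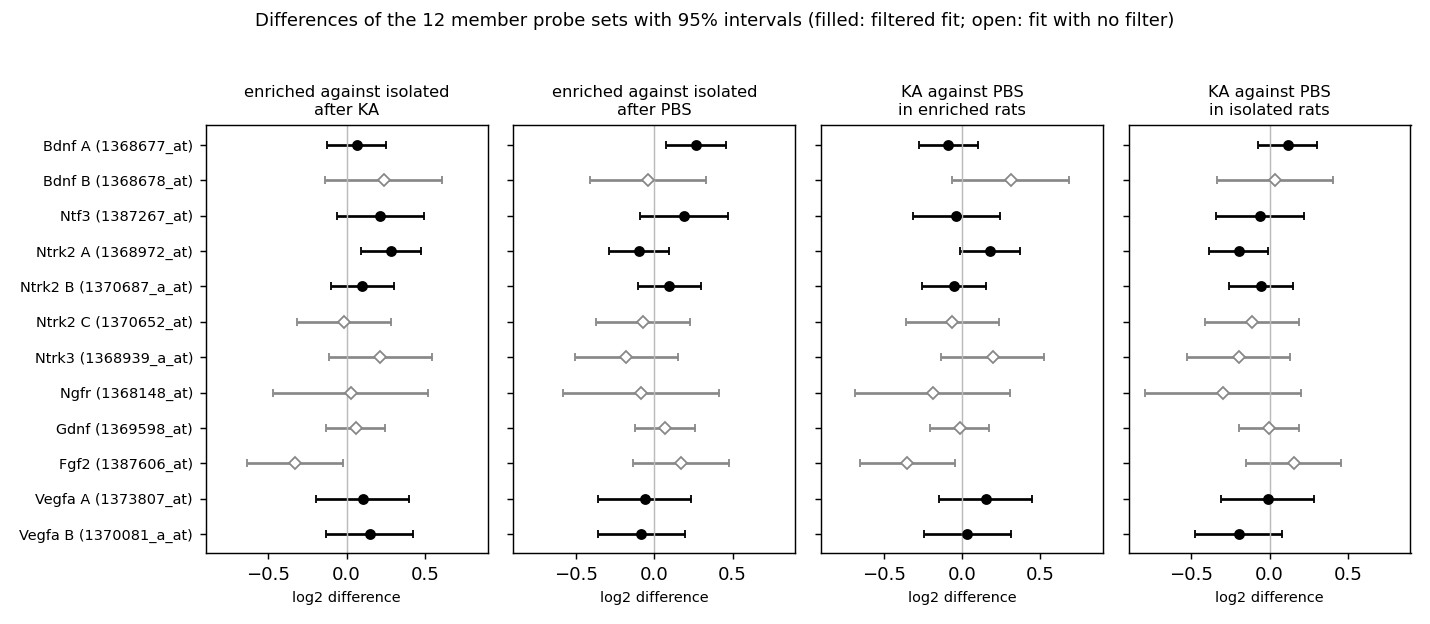
Log2 differences (horizontal axis) of the 12 member probe sets in 4 comparisons, with 95% intervals from limma; filled points come from the filtered fit and open points from the fit with no filter. Intervals for Bdnf A after PBS (0.075 to 0.455) and Ntrk2 A after KA (0.092 to 0.47) lie above 0 in the housing comparisons. That of the dim Fgf2 after KA (-0.63 to -0.024) lies below 0. No member passed after adjustment.

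Ntrk3, the gene of the NT-3 receptor TrkC, lay below the filter. Its signal was 25.0, 32.3 and 46.7 in KA_enriched and 33.7, 25.5 and 23.7 in PBS_enriched, against 27.2, 26.8 and 26.5 in KA_isolated and 36.4, 25.8 and 38.7 in PBS_isolated. The groups overlapped in each comparison. Its interaction was 0.39 with no filter (SE 0.211, interval -0.071 to 0.86, adjusted p = 0.94), and 0.23 (SE 0.177, adjusted p = 0.86) without KA_enriched replicate 3. Over the 12 arrays Ntrk3 correlated with Ntrk2 A (Pearson r 0.789, Spearman rho 0.65), as a description. KA_enriched replicate 3 was the highest array for both.

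Ngfr, the gene of p75, was dim. It had 4.9, 6.9 and 4.3 in KA_enriched, 3.8, 3.2 and 22.0 in PBS_enriched, 5.6, 4.9 and 4.3 in KA_isolated and 3.7, 13.9 and 13.4 in PBS_isolated. Values above 10 occurred in 3 PBS arrays and in no KA array, but the remaining PBS arrays (3.7, 3.8 and 3.2) lay below every KA array. The KA and PBS groups overlapped in each housing. No detection calls were used here, so a signal at this level does not show whether p75 RNA was present.

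**Figure D3:**
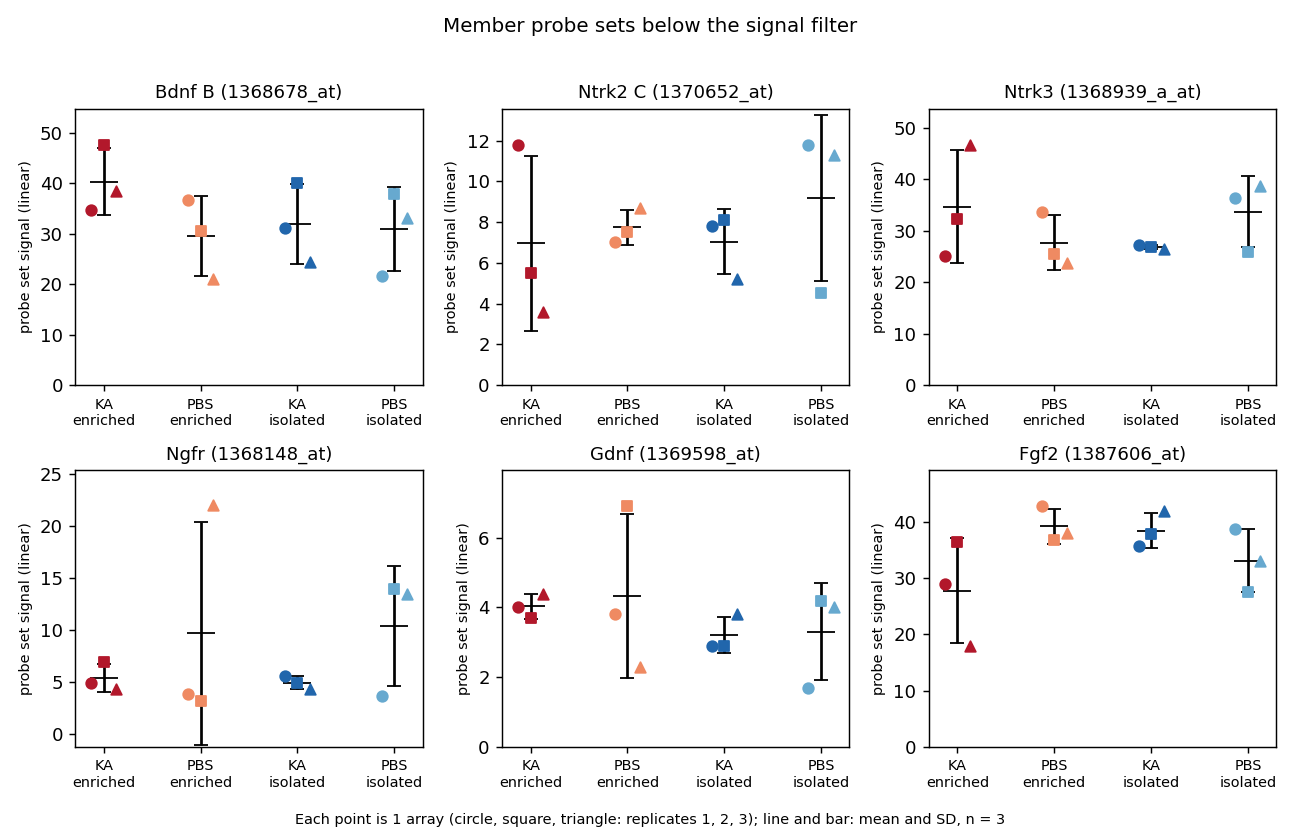
Signal of the 6 member probe sets below the filter on a linear axis, by group; points are arrays, and lines with bars are means with SD (n = 3; the bar of Ngfr in PBS_enriched reaches below 0). Fgf2 is lower in all KA_enriched arrays (17.9 to 36.5) than in all PBS_enriched arrays (36.9 to 42.8), and Gdnf stays at 1.7 to 6.9. Among all tested probe sets, 9.62% had groups that did not overlap in this KA against PBS comparison.

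In KA against PBS in isolated rats, 3 of the 6 tested member probe sets had groups that did not overlap (Bdnf A above, Ntrk2 A and Vegfa B below), against 10.8% of all tested probe sets. In enriched rats 0 of the 6 and 9.62% of all did so, and in the housing comparison after KA 1 of the 6 (Ntrk2 A) and 10.8% of all. None of these passed with limma. Markers of microglia, the immune cells of the brain, went with KA in isolated rats: all 12 tested markers were higher (0 passed, 9 with an unadjusted p under 0.05, median log2 0.505 against -0.002 over all genes), and the summed signal of the 14 on the array was 1782 to 2137 in KA_isolated, against 1228 to 1325 in PBS_isolated. It was also high in KA_enriched replicate 3 (1835) and PBS_enriched replicate 2 (1933), the array with the highest Bdnf signal. The arrays next in Bdnf A signal went the other way. KA_enriched replicate 2 (136.6) had the lowest marker sum of the series, 1214, and PBS_enriched replicate 1 (133.0) had 1249. The same markers were mostly lower in contrasts where Ntrk2 A was higher and Fgf2, like the markers, was lower. After KA, 11 of 12 were lower in enriched than in isolated rats (0 passed, 4 with an unadjusted p under 0.05, median log2 -0.366). In the interaction 11 of 12 were lower (0 passed, 7 with an unadjusted p under 0.05, median -0.505). For KA against PBS in enriched rats 6 were higher and 6 lower (median -0.016). The part of microglia in the member values was not tested.

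Related genes of these pathways were described from lists, 1 probe set per gene, by their values in the mean housing comparison; in the other 6 contrasts 0 genes of these lists passed. Of 9 tested further growth factors, 6 were higher and 3 lower in enriched rats, 0 passed, and the median log2 difference was 0.039, against 0.002 over 6923 genes. The examples of smallest p were Pspn, a GDNF relative (log2 0.28, SE 0.206), Fgf14 (0.12, SE 0.089), Fgf9 (0.10, SE 0.094) and Manf (0.053, SE 0.065). Ntf4, the other TrkB ligand, lay below the filter at a mean signal of 2.5.

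Of 17 tested further receptors, 11 were higher and 6 lower in enriched rats, 0 passed, and the median was 0.057. Those of smallest p were the FGF receptors Fgfr1 (log2 0.095, SE 0.059) and Fgfr2 (0.081, SE 0.054), the insulin-like growth factor receptor Igf1r (0.115, SE 0.086) and the VEGF co-receptor Nrp1 (0.10, SE 0.081). Sort1, encoding sortilin, which binds precursors of neurotrophins and sorts BDNF, had 868 ± 50.95 in KA_enriched, 860 ± 29.97 in PBS_enriched, 843 ± 12.7 in KA_isolated and 829 ± 39.0 in PBS_isolated (SD, n = 3). The GDNF co-receptor gene Gfra1 had -0.048 (SE 0.063), and the VEGF receptor genes Kdr and Flt1 had 0.15 (SE 0.125) and -0.032 (SE 0.094). Ret lay below the filter at a mean signal of 22.0.

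Of 9 tested genes for precursor processing, sorting and extracellular cleavage, 5 were higher and 4 lower in enriched rats, 0 passed, and the median was 0.001. Pcsk2, a prohormone convertase, had 0.19 (SE 0.091, adjusted p = 0.875), Plat, the tissue plasminogen activator that starts cleavage of BDNF precursor, 0.105 (SE 0.103), Pcsk5 -0.080 (SE 0.11) and Cpe, which takes part in sorting BDNF to the regulated pathway, -0.032 (SE 0.056). Of 28 tested genes of intracellular Trk signalling, 14 were higher and 14 lower, 0 passed, and the median was -0.006. Sos1, which loads Ras with GTP, had 0.17 (SE 0.062, adjusted p = 0.832), the adaptor gene Gab1 0.12 (SE 0.057), the p75-binding Bex1 -0.125 (SE 0.062) and Rps6ka2 0.11 (SE 0.069).

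Of 15 tested regulators of Bdnf transcription, 5 were higher and 10 lower, 0 passed, and the median was -0.019. Creb1, which encodes the factor that binds the cAMP response element, had 128 ± 29.2 in KA_enriched, 133 ± 9.59 in PBS_enriched, 104 ± 11.3 in KA_isolated and 104 ± 13.7 in PBS_isolated (SD, n = 3). Its mean housing difference was 0.28 (SE 0.094, adjusted p = 0.832), with 101.5 to 159.3 in enriched and 90.8 to 119.1 in isolated arrays, which overlapped. Usf1 had -0.125 (SE 0.055), Camk4 -0.27 (SE 0.16) and Srf 0.079 (SE 0.053), none passing.

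Activity-regulated genes are, like Bdnf, induced by neuronal firing. Of 17 tested, 14 were higher and 3 lower in enriched rats, with a median of 0.15, and 1 passed, the transcription factor gene Egr1 (log2 0.45, SE 0.065, adjusted p = 0.042). Its signal was 540.0 to 664.0 in enriched and 377.6 to 474.6 in isolated arrays, with no overlap. Its call was lost in 17 of 19 other settings, each array left out included, where the log2 difference was 0.408 to 0.48 and the adjusted p 0.0121 to 0.209 (limma). The list was chosen with this result known. Arc (0.58, SE 0.093), Egr4 (0.56, SE 0.095) and Junb (0.36, SE 0.075) did not pass (adjusted p = 0.105, 0.1125 and 0.281 with limma). Over the 12 arrays the Pearson r with Bdnf A was 0.588 for Arc, 0.522 for Egr4, 0.512 for Junb and 0.42 for Egr1, which put them at ranks 246, 465, 498 and 944 of 9520 probe sets.

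**Figure D4:**
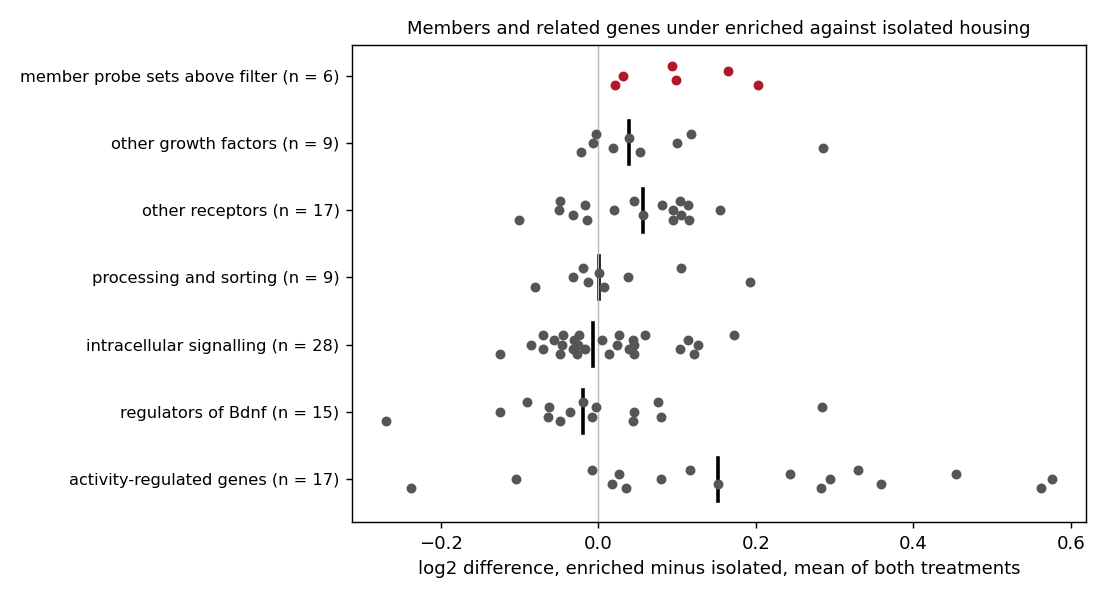
Log2 differences between enriched and isolated rats in the mean of both treatments (horizontal axis), 1 point per probe set; black lines are medians of the gene lists. The tested member probe sets lie between 0.02 and 0.20, and the activity-regulated genes reach 0.58.

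The named genes whose pattern over the 12 arrays was most like Bdnf A were Xrn2 (Pearson r 0.941), Zfp36l1 (0.915), Kndc1 (0.905), LOC100910558 (0.874), Ctsl (0.861) and Tspan15 (0.855), taken as the highest of all tested probe sets. With the group means taken out, their r lay between 0.669 and 0.896, as a description over arrays that share their scaling. Xrn2 had 111.0 to 129.4 in enriched and 108.2 to 121.4 in isolated arrays. The signals of all 6 overlapped between enriched and isolated arrays.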

How the data were processed

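RNA from 12 pools of rat hippocampus was measured on 12 single-colour oligonucleotide arrays. The deposited table holds a linear intensity per probe set. How the authors summarised probes is not stated in what was used here; every array shows a trimmed mean of 150.03 (2% off each end), so it was taken as already scaled. Groups came from the treatment text of the labels. Without the 57 controls, 15866 probe sets remained; the brightest 60% by mean (9520) were tested as log2(signal + 17), 17 being the 20th percentile. Fold changes of dim probe sets are understated on this scale. limma 3.58.1 in R 4.3.3 fitted a mean per group over all 12 arrays (lmFit, eBayes), with 7 contrasts. P-values are two-sided and adjusted by Benjamini-Hochberg over 9520 probe sets, threshold 0.05. Member probe sets below the filter were fitted with no filter, adjusted over 15866. The number of arrays limits the precision.

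Gene names came from the array annotation (12789 probe sets with 1 symbol, 312 with several, 2822 unnamed here); 12754 were matched to RefSeq by Entrez ID, and 0 symbols changed. Promoter windows and coordinates are RefSeq's (GRCr8). The members, gene lists and rule for naming genes (every member probe set, list genes that passed in any contrast, up to 4 per list by smallest p in the mean housing contrast, 8 fixed pathway genes where measured, and the 6 genes most like Bdnf) were chosen with earlier results of these data known. The steps were tested on simulated data. Alternatives were no filter, quantile normalization, equal medians, pseudocounts of 4 and 64, array weights, a replicate block, the compared groups alone, and leaving out each array.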

Additional observations from a re-analysis of the deposited data

How the results depend on the processing

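The 27 member differences tracked here, picked after their values were seen, kept their direction and did not pass under any of 524 alternative values (lowest adjusted p = 0.358, limma); the alternatives for the dim probe sets were chosen after seeing the data. Over all 42 values of the 6 tested probe sets in 7 contrasts, 16 turned in sign under at least 1 alternative, none of them larger than 0.103, and 0 of 822 alternative values passed (limma). Same-numbered replicates deviated together weakly at most (correlations of -0.072 to 0.199, median 0.0565, over 0.1 in 1 of 18). The labels name no pairing or batch, and whether these replicates shared one was not tested. With the replicate number as a block (a replicate block), the count of called probe sets in the mean housing contrast was 1 in place of 2; it was also 1 with equal array medians, a pseudocount of 4 or array weights, and 3 with a pseudocount of 64. Counts over all genes moved elsewhere too: 5 in place of 1 for KA against PBS in isolated rats with the compared groups alone, 0 in place of 1 for the mean KA effect with no filter, and 2 in place of 1 for housing after PBS with array weights. Leaving out 1 array gave 1 to 2 calls for mean housing (2 only without KA_enriched replicate 1), 1 to 2 for housing after PBS (2 without PBS_isolated replicate 2) and 0 to 1 for housing after KA (1 without PBS_enriched replicate 3 or KA_enriched replicate 1); no member was among the calls. The causes were not tested. With 1 array left out, Bdnf A ranged over 0.127 to 0.20 in mean housing, 0.192 to 0.332 after PBS and 0.0094 to 0.135 after KA; member values that moved by over 1.5 times are given beside the results. Egr1 passed in 2 of 19 alternatives (quantile normalization and a pseudocount of 64), which were applied to it after seeing the data.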
